A study of Mus musculus with 9 samples.

Results

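Crem, Creb1, Fhl5, Tbpl1, Taf7l, Rfx2, Rfx3 and Nr6a1 encode transcription regulators of spermatids, grouped around the activator CREM. They were taken by name and not by a rule on measured values, though earlier results of these data were known when they were chosen. They make up 8 of the 55401 genes in the count table and 8 of the 22510 genes with enough counts to be tested. The table holds 9 libraries from testes of wild-type (WT) male mice, which the study's methods give as the ICR strain. The age of the mice and the number of testes behind each library are not given in the sources used here. All 9 libraries share genotype, tissue and poly(A) selection with oligo(dT) beads, and differ, per the labels, in the antibody. In the 3 input libraries the poly(A) RNA went into library construction with no antibody step. In the 3 IgG libraries it was first recovered on beads carrying a control rabbit immunoglobulin. In the 3 acRIP libraries it was recovered on beads carrying an antibody against N4-acetylcytidine (ac4C), a cytidine modification made by the enzyme NAT10. The comparisons ask whether the regulator transcripts were recovered by the ac4C antibody beyond the control immunoglobulin and beyond their share of the input.

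Round spermatids transcribe their genes through a programme that differs from that of somatic cells. CREM, a basic leucine zipper protein, binds cAMP response elements and in spermatids works through an activator isoform that switches on genes for chromatin packing and for the sperm tail. Its partner FHL5, also called ACT, is a LIM domain coactivator of testis that lets CREM act without the phosphorylation that its relative CREB1 needs. TBPL1 (TRF2) and TAF7L are testis-rich versions of the general factors TBP and TAF7. RFX2 and RFX3 bind X-box elements of cilium genes, and NR6A1 (GCNF) is an orphan nuclear receptor of germ cells.

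The libraries held 14647542 to 31340090 assigned counts, and each input library held more than any IgG or acRIP library. The locus of 18S rRNA, a known carrier of ac4C, took 0.540% to 0.613% of counts in input, 5.14% to 5.57% in IgG and 9.35% to 10.6% in acRIP. Defining markers of testis were present in every group: the summed FPKM (counts scaled to exon length and to the library's total) of 5 round spermatid markers was 1510 to 1578 in input, 1116 to 1155 in IgG and 1081 to 1111 in acRIP. That of 5 elongating spermatid markers was 26042 to 29940 in input, 31058 to 32141 in IgG and 31793 to 34435 in acRIP. Among somatic lists, the summed FPKM of 6 Sertoli cell markers was 44.9 to 47.2 in input, 44.4 to 46.3 in IgG and 46.6 to 49.0 in acRIP. Most of it was Cldn11 (means 36.9, 34.0 and 36.7), while scarcer markers moved both ways (Gata4 at 0.388, 2.21 and 1.52, Fshr at 1.20, 1.14 and 0.530). The summed FPKM of 4 macrophage markers was 11.4 to 13.1, 16.7 to 17.4 and 21.8 to 25.0, carried by C1qa, while the mean of Csf1r was 1.04, 0.881 and 0.0773. That of 4 endothelial markers was 1.69 to 2.17, 1.33 to 1.94 and 5.02 to 6.51, carried by Tek and Cdh5, while the mean of Pecam1 was 0.337, 0.281 and 0.0988. That of 5 erythrocyte markers was 184 to 188, 248 to 267 and 892 to 1166, carried by the β-globin gene Hbb-bs. The mean of Alas2 was 8.19, 6.49 and 0.829. The study added an RNA named mouse β-globin as an ac4C probe, and whether its reads counted toward Hbb-bs was not tested. The summed FPKM of 5 epididymal markers was 5.58 to 6.78, 5.25 to 5.88 and 17.8 to 18.8. Nearly all of it was Rnase10 (means 5.80, 5.45 and 17.5), with Adam7 and Lcn5 at 0 in all libraries. The part of these differences in the values below was not tested. Fewer cells of a type and less RNA per cell cannot be told apart in such whole-tissue libraries, and the IgG and acRIP RNA was too scarce to weigh, so each value is a share of its library and not an amount recovered.

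The 8 transcripts differed widely in abundance (levels in FPKM, mean ± SD, n = 3). In input Fhl5 stood highest at 375 ± 3.36, rank 163 of the 18991 protein-coding genes with counts. Tbpl1 followed at 163 ± 3.65 (rank 461) and Crem at 84.6 ± 1.31 (rank 910). The middle of the order was held by Taf7l at 21.9 ± 1.27 and Rfx2 at 11.8 ± 0.226. Nr6a1 at 4.03 ± 0.0678, Rfx3 at 3.53 ± 0.0265 and Creb1 at 1.13 ± 0.124 (rank 10192) closed it. No neighbours in the input order overlapped between libraries. The order changed after precipitation. In IgG, Rfx2 (17.8 ± 0.718) and Taf7l (17.5 ± 0.794) overlapped, and in acRIP, Taf7l (10.5 ± 0.645) and Nr6a1 (9.43 ± 0.856) did. FPKM is divided by all annotated exon bases of a gene, so a gene with long, rarely used exons has a lower value.

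**Figure D1:**
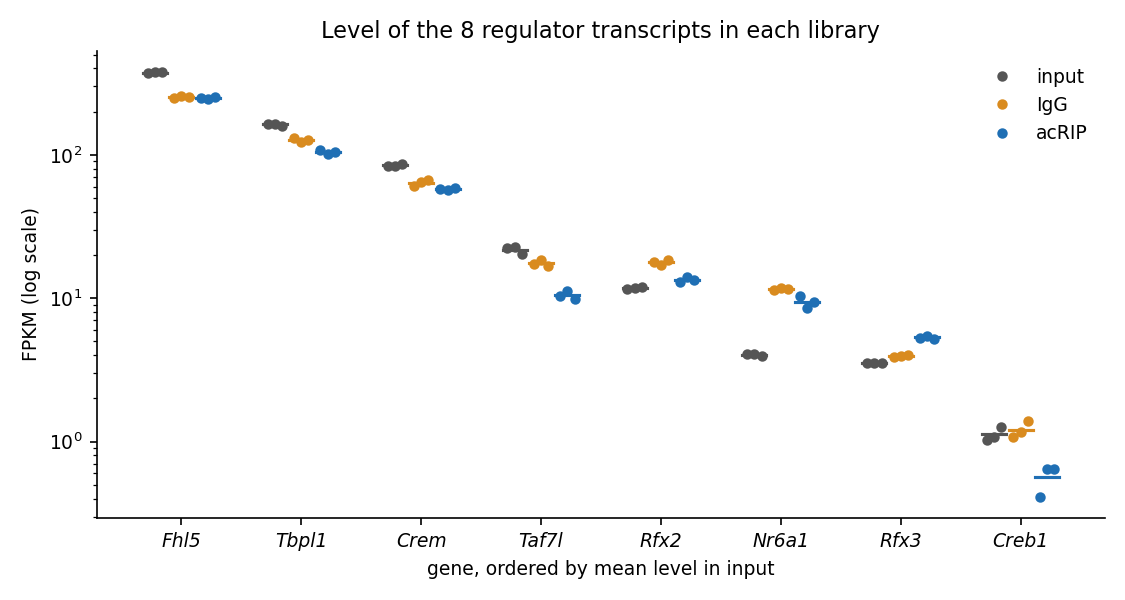
FPKM (vertical log axis) of the 8 regulator transcripts in each library, ordered by mean input level; points are libraries and bars are means of 3 input (grey), 3 IgG (orange) and 3 acRIP (blue) libraries. Fhl5, Tbpl1 and Crem stay the highest in every group, while Nr6a1 lies near 4.03 in input and at 9.43 in acRIP and 11.6 in IgG.

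In acRIP against IgG, 1 of the 8 transcripts was higher, 6 were lower and 1 did not pass at an adjusted p under 0.05 (edgeR's quasi-likelihood test, Benjamini-Hochberg over all tested genes). Over all 22510 tested genes, 26.4% were higher and 37.6% lower by that rule. With a fold change over 2 required as well, as for every gene called here, 0 of the 8 were higher and 1, Creb1, was lower, beside 11.5% and 20.9% of all tested genes. DESeq2 also called 0 higher and 1 lower, and at an unadjusted edgeR p under 0.05 the counts were 1 higher and 6 lower. The median log2 fold change was -0.24 over the 8 and -0.09 over all tested genes, whose quartiles were -0.80 and 0.40.

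Against input, 3 of the 8 were higher in acRIP (Nr6a1, Rfx3, Rfx2) and 5 were lower at the adjusted p, beside 32.0% and 40.3% of all tested genes. Past 2-fold, Nr6a1 was the 1 called higher and 0 were called lower, beside 17.7% and 22.9%. In IgG against input 3 were higher (Nr6a1, Rfx2, Rfx3), 4 were lower and Creb1 did not pass, beside 25.9% and 26.0% of all tested genes. Nr6a1 was again the 1 called higher and 0 were called lower, beside 13.5% and 7.22%. DESeq2 gave the same called counts in both comparisons with input, and unadjusted edgeR p-values under 0.05 gave 3 higher and 5 lower in acRIP and 3 higher and 4 lower in IgG. A rule for ac4C(+) transcripts, modelled on that of the study, asked for a ratio of mean FPKM + 1 over 2 against both IgG and input. It also asked for an unadjusted limma p under 0.05 in both. The study used other tests than limma, so the genes that meet the rule here need not be its ac4C(+) genes. The rule used here was met by 1.97% of the 35699 genes with counts and by none of the 8. The nearest was Nr6a1 against input, at a ratio of 2.08, whose ratio to IgG was 0.827. Rfx3, at 1.28 to IgG and 1.40 to input, was the regulator with both ratios above 1. The comparisons share libraries and are not independent of each other.

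**Figure D2:**
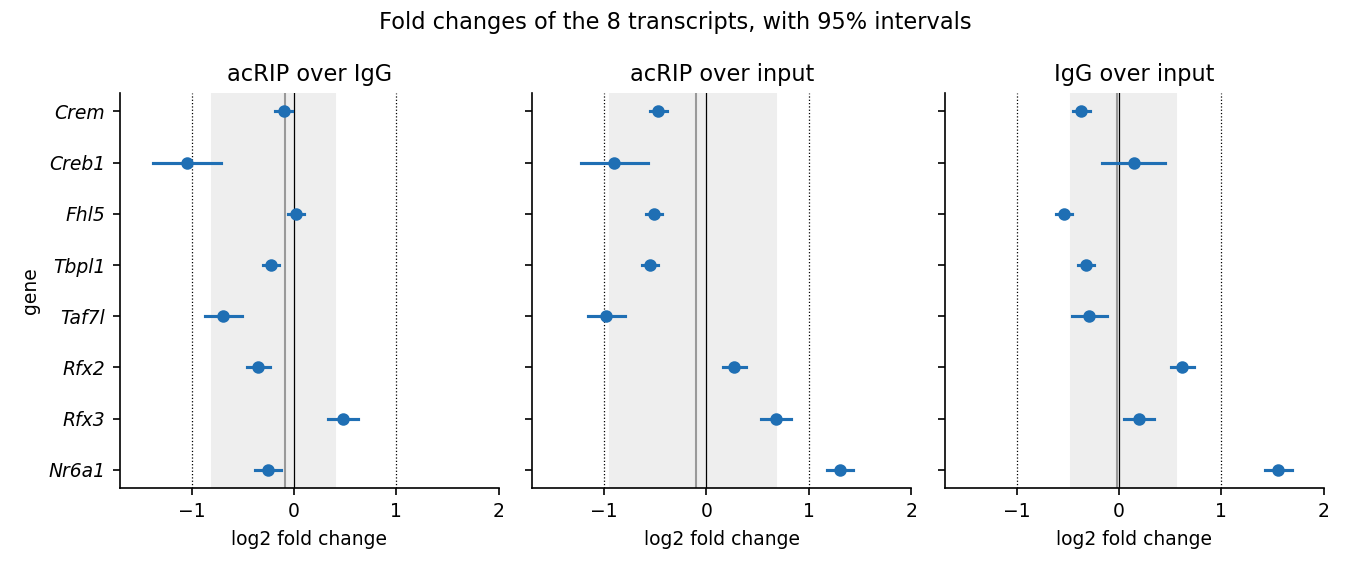
Log2 fold change (horizontal axis) of each transcript in acRIP over IgG, acRIP over input and IgG over input, with its 95% interval; the grey band and line are the quartiles and median of all 22510 tested genes, and dotted lines mark 2-fold. Creb1 is at -1.04 in acRIP over IgG, and Nr6a1 lies right of the 2-fold line in both comparisons with input, at 1.31 and 1.56.

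Crem (ENSMUSG00000063889.16; mm10 chr18:3266048-3337748, minus strand; 39 annotated transcripts over 17 merged exons) was lower in both kinds of precipitate than in input. Its FPKM was 83.6, 84.0 and 86.1 in input, 60.2, 64.9 and 67.1 in IgG, and 58.1, 56.5 and 58.6 in acRIP. The 3 groups did not overlap. The log2 fold change of acRIP over input was -0.47 (SE 0.04, adjusted p = 5.24e-12) and that of IgG over input -0.37 (SE 0.04, adjusted p = 1.88e-09). Between acRIP and IgG it was -0.10 (SE 0.04, adjusted p = 0.0295), close to the median of all genes. This last adjusted p was not under 0.05 in 11 of 18 alternative fits. Over the 18 fits the log2 fold change ran from -0.15 to -0.05, with adjusted p up to 0.263. Counts are summed over isoforms, so activator and repressor forms of CREM were not separated. The long noncoding gene Gm6225 shares 472 exon bases with Crem on the opposite strand and took 82 to 177 counts a library, against 5198 to 15449 for Crem.

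Creb1 (ENSMUSG00000025958.14; mm10 chr1:64532645-64604548, plus strand), the broadly expressed relative that is switched on by phosphorylation, was the scarcest of the 8 and the lowest after ac4C precipitation. Its FPKM was 1.03, 1.08 and 1.27 in input, 1.08, 1.17 and 1.39 in IgG, and 0.413, 0.648 and 0.642 in acRIP. Input and IgG overlapped, and all acRIP libraries lay below both. It was 2.06-fold lower in acRIP than in IgG (log2 fold change -1.04, SE 0.16, adjusted p = 2.10e-06) and 1.87-fold lower than in input (-0.90, SE 0.16, adjusted p = 1.07e-05). IgG over input was 0.14 with a 95% interval of -0.17 to 0.45 (adjusted p = 0.449). Its counts were few, 91 to 166 in acRIP. The acRIP over IgG change fell short of 2-fold without IgG replicate 3 (-0.93), without acRIP replicate 1 (-0.86) or with upper quartile scaling (-0.99), and the change against input passed 2-fold without acRIP replicate 2 (-1.005).

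The sequence TCCCAGCT is the DNA form of an ac4C motif that the study describes in HEK293T cells, a human embryonic kidney line. A looser motif that it gives for mouse testis was not searched here. Among the 8 genes, Creb1 held the only copy of it in its exons. It is shown, with the motif in capitals, because the regulator that carries it was also the one called lower with the ac4C antibody. The site lies in the 3′-UTR at mm10 chr1:64601966-64601995, plus strand.
Creb1 3′-UTR: agtggggtgggTCCCAGCTggggaaatgtt
Exons of 17.0% of the 18991 protein-coding genes with counts held the motif on the transcribed strand, and so did 38.5% of the 936 genes of a length like that of Creb1, whose merged exons span 13742 bases. The 8 genes together had 0.0180 sites per kb, against 0.0419 over all these genes. A match of letters says nothing of acetylation at the site.

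Fhl5 (ENSMUSG00000028259.13; mm10 chr4:25199908-25242876, minus strand), the CREM coactivator, was lower in both precipitates than in input. Its FPKM was 371, 375 and 378 in input, 248, 259 and 253 in IgG, and 248.9, 244.9 and 251.9 in acRIP. IgG and acRIP libraries overlapped, and all lay below input. The log2 fold changes over input were -0.51 for acRIP (SE 0.04, adjusted p = 1.49e-13) and -0.53 for IgG (SE 0.04, adjusted p = 8.37e-14). Between acRIP and IgG the fold change was 0.02 with a 95% interval of -0.06 to 0.10 (adjusted p = 0.659), and turned to -0.03 with scaling by total count alone. Fhl5 has the shortest exons of the 8, 1171 bases.

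Tbpl1 (ENSMUSG00000071359.13; mm10 chr10:22703879-22731938, minus strand), the TBP-related factor needed to complete spermiogenesis, was lower in IgG than in input and lower again in acRIP. Its FPKM was 165, 165 and 159 in input, 132, 123 and 127 in IgG, and 108, 102 and 105 in acRIP, with no overlap between groups. Log2 fold changes were -0.55 for acRIP over input (SE 0.04, adjusted p = 4.11e-14), -0.33 for IgG over input (SE 0.04, adjusted p = 1.03e-08) and -0.23 for acRIP over IgG (SE 0.04, adjusted p = 9.12e-06). Slc2a12, which shares 407 exon bases with it on the opposite strand, had 6 to 70 counts a library against 5672 to 16930 for Tbpl1.

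Taf7l (ENSMUSG00000009596.9; mm10 chrX:134460118-134476490, minus strand), an X-linked TFIID subunit of germ cells, was the regulator farthest below input in acRIP. Its FPKM was 22.5, 22.7 and 20.4 in input, 17.5, 18.4 and 16.8 in IgG, and 10.4, 11.2 and 9.91 in acRIP. The groups were separate, in the same order in which Crem and Tbpl1 fell. The change was -0.98 on the log2 scale for acRIP over input (SE 0.09, adjusted p = 1.38e-11), -0.69 for acRIP over IgG (SE 0.09, adjusted p = 8.41e-08) and -0.29 for IgG over input (SE 0.08, adjusted p = 0.00432). It stood just inside 2-fold against input and passed it without input replicate 3 or acRIP replicate 2 (-1.02 in each).

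Rfx2 (ENSMUSG00000024206.15; mm10 chr17:56775897-56831013, minus strand), which drives cilium genes and is needed for spermiogenesis, was highest in IgG. Its FPKM was 11.6, 11.8 and 12.0 in input, 17.95, 16.98 and 18.38 in IgG, and 12.9, 14.0 and 13.5 in acRIP, again without overlap. It was higher in IgG than in input by 0.62 on the log2 scale (SE 0.06, adjusted p = 1.97e-11), higher in acRIP than in input by 0.27 (SE 0.06, adjusted p = 6.39e-05), and changed by -0.35 in acRIP over IgG (SE 0.06, adjusted p = 2.76e-06). Its transcripts hold a stretch that matched those of 158 other genes at 90% identity or more over at least 150 bases, and reads within it may not map uniquely.

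Rfx3 (ENSMUSG00000040929.17; mm10 chr19:27761721-28011166, minus strand), its relative in ciliogenesis, was the only one of the 8 higher with the ac4C antibody than with IgG. Its FPKM was 3.50, 3.56 and 3.52 in input, 3.90, 3.94 and 4.01 in IgG, and 5.29, 5.47 and 5.22 in acRIP. Every acRIP library lay above every other library. The log2 fold change of acRIP over IgG was 0.48 (SE 0.07, 95% interval 0.33 to 0.63, adjusted p = 1.24e-06) and that over input 0.68 (SE 0.07, adjusted p = 7.35e-10). At the 77.5th percentile of all tested genes, the first of these is not an extreme value. IgG over input was 0.20 (adjusted p = 0.0247), and its adjusted p was not under 0.05 in 7 of 18 alternative fits, reaching 0.270.

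Nr6a1 (ENSMUSG00000063972.13; mm10 chr2:38723370-38927688, minus strand), a nuclear receptor of round spermatids that binds DNA as a repressor, had the greatest change of the 8 and had it with the control immunoglobulin too. Its FPKM was 4.08, 4.06 and 3.95 in input, 11.4, 11.8 and 11.7 in IgG, and 10.3, 8.58 and 9.42 in acRIP. IgG was highest in every library and input lowest. Against input it was 2.94-fold higher in IgG (log2 fold change 1.56, SE 0.06, adjusted p = 2.72e-20) and 2.47-fold higher in acRIP (1.31, SE 0.06, adjusted p = 2.78e-18). In acRIP over IgG it changed by -0.25 (SE 0.06, adjusted p = 0.000558). Nr6a1 thus lay above its input share with either antibody.

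The regulators' promoters were read for the cAMP response element, a shorter form of it and the letters TATAAA. The windows were those of RefSeq in GRCm38.p6, from 250 bases before to 50 bases after a start. X-box elements and sites of NR6A1 were not searched. Entries were found for 7 of the 8 genes, in 9 windows, and not for Crem. A full cAMP response element (TGACGTCA, the CREM and CREB1 site, the same on both strands) was found in 1 window, of Nr6a1, beside 1.79% of all 32851 promoter windows. It is shown because it was the only such element in the 9 windows, with the element in capitals, at chr2:38926412-38926441 on the minus strand, its first base 36 bases past the start.
Nr6a1 start region: cgtggcagcggcgcgTGACGTCAgaggagg
The shorter element TGACG, which the full one contains, was in both Nr6a1 windows and in that of Rfx2 (20.8% of all windows, either strand), and TATAAA was in that of Taf7l (13.6%). The libraries measure RNA and not binding, so they hold no test of these sites.

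The median exon GC of the 8 was 44.6%, against 48.9% over protein-coding genes with counts. It was 39.3% in Creb1, 40.3% in Rfx3 and 41.2% in Crem, the 6.33rd, 9.71st and 12.8th percentiles of protein-coding genes with counts, against 55.1% in Rfx2.

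Ratios of related genes within a library do not depend on how libraries are scaled, and 7 pairs were compared in 3 ways, 21 tests in all (log2 ratio of counts per length; exact two-sided permutation test of 3 against 3 libraries, which cannot give p below 0.1; p adjusted over the 21 is then at least 0.111). Taf7l against Taf7, its counterpart of somatic cells, moved most. The log2 ratio was 2.69, 2.50 and 2.68 in input, 1.03, 0.995 and 1.005 in IgG, and 0.309, 0.278 and 0.309 in acRIP, with no overlap. It was lower in acRIP than in input by 5.01-fold (difference of log2 ratios -2.32 ± 0.06, SE, n = 3; exact p = 0.1) and lower in acRIP than in IgG by 1.64-fold (-0.71 ± 0.01; exact p = 0.1). Taf7 itself was higher in both precipitates than in input, by 1.35 in acRIP (adjusted p = 3.57e-12) and 1.32 in IgG (adjusted p = 8.06e-12).

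For Rfx2 against Rfx3 the log2 ratio was 1.73, 1.73 and 1.78 in input, 2.20, 2.11 and 2.20 in IgG, and 1.29, 1.36 and 1.37 in acRIP. No groups overlapped. Relative to input the log2 ratio differed by 0.42 ± 0.03 in IgG and by -0.40 ± 0.03 in acRIP (SE, exact p = 0.1 for each), and acRIP lay 1.78-fold below IgG. Crem against Creb1 was 1.95-fold higher in acRIP than in IgG (0.97 ± 0.23, exact p = 0.1). Relative to input this ratio differed by 0.46 ± 0.23 in acRIP and by -0.51 ± 0.10 in IgG (exact p = 0.1 for each). Against Atf1, another factor of the same family, Crem was 1.21-fold higher in acRIP than in IgG (0.28 ± 0.08, exact p = 0.1) and overlapped input (-0.11 ± 0.07, exact p = 0.2).

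Tbpl1 against Tbp was lower in acRIP than in IgG by 0.35 ± 0.03 (exact p = 0.1) and overlapped input (-0.04 ± 0.06, exact p = 0.6). Fhl5 against Fhl4, a testis LIM protein with even more counts (47397 to 166793 a library), was 1.24-fold higher in acRIP than in input (0.31 ± 0.05) and 1.13-fold higher than in IgG (0.18 ± 0.04; exact p = 0.1 for both). Nr6a1 against Nr2c2, an orphan receptor of germ cells (TR4), was 1.61-fold higher in acRIP than in IgG (0.68 ± 0.20, exact p = 0.1), with Nr2c2 itself at -0.95 in acRIP over IgG (adjusted p = 8.43e-06).

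**Figure D3:**
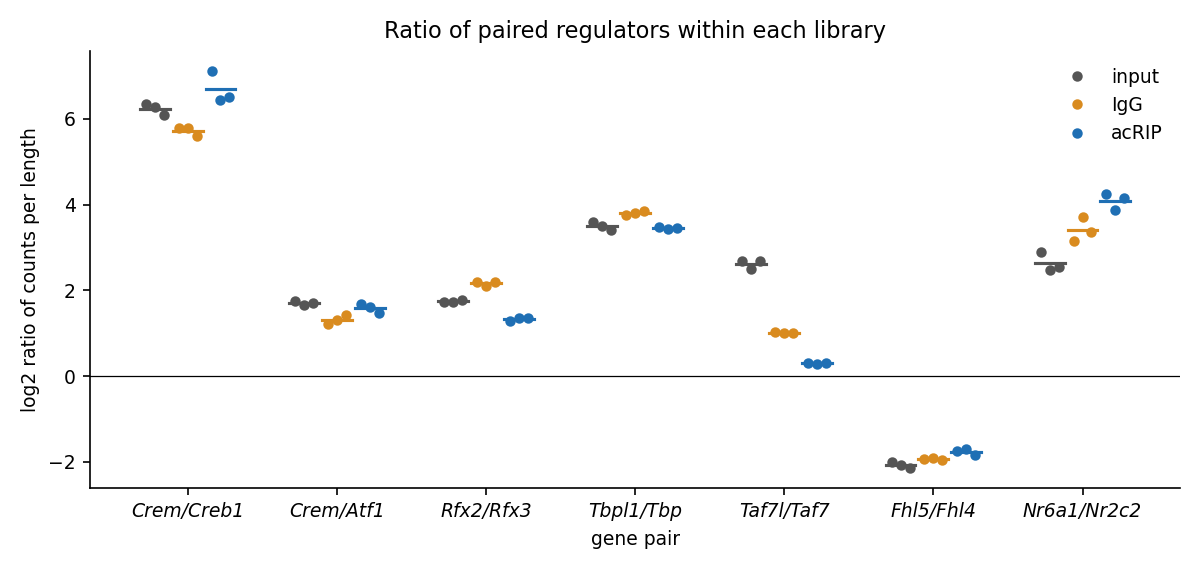
Log2 ratio of counts per length (vertical axis) for 7 gene pairs in each library; points are libraries and bars group means (n = 3). Taf7l over Taf7 steps down from a mean of 2.62 in input to 1.01 in IgG and 0.299 in acRIP, and Rfx2 over Rfx3 is highest in IgG (2.17) and lowest in acRIP (1.34).

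The other genes of these families were counted in the same fits (acRIP over IgG, called at 2-fold), to be read beside the 11.5% called higher and 20.9% called lower of all tested genes. In the CREB/ATF family 3 of 11 tested genes (27.3%) were higher (Creb5, Crebzf, Crebl2) and 1 (9.09%) was lower (Creb3l2). Crebzf, a bZIP protein that partners other factors, had 94, 70 and 60 counts in input, 80, 77 and 114 in IgG, and 267, 245 and 267 in acRIP, a log2 fold change of 1.59 over IgG (SE 0.19, adjusted p = 1.89e-08) and 2.44 over input. It was the 1 gene of all lists that met the ac4C(+) rule. Creb5 was at 2.19 (adjusted p = 0.00328) on 6 to 8 counts in IgG and 24 to 39 in acRIP, and Creb3l2, a membrane-bound family member, at -3.66 (adjusted p = 2.33e-06) on 28 to 64 and 0 to 8 counts. Creb5, with 24, 8 and 2 counts in input, had enough counts to be tested mainly through acRIP.

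Among 13 coactivators, FHL proteins and kinases of the CREM pathway, Crtc1, a CREB coactivator, was the 1 called higher (1.36, SE 0.18, adjusted p = 1.19e-07) and 0 were lower. Among 19 tested TBP, TFIID and TFIIA genes 0 were higher and 2 were lower, Taf4 at -1.12 (adjusted p = 0.00223) and Taf3 at -1.05 (adjusted p = 1.07e-08), both core TFIID subunits. Taf4 was under 2-fold without IgG replicate 2 (-0.83) or acRIP replicate 3 (-0.82), and Taf3 without IgG replicate 1 (-0.99) or acRIP replicate 3 (-0.96), so that the count lower ran from 0 to 3 with 1 library left out. Against input neither was called lower in acRIP (log2 fold change 0.67 for Taf4 and 0.05 for Taf3), and both were called higher in IgG (1.78 and 1.09). In acRIP over input 4 of the 19 genes (21.1%) were called higher and 3 (15.8%) lower, beside 17.7% and 22.9% of all tested genes. Taf7l2 was not analysed here. Of 8 further RFX family genes Rfx6 was higher (2.13, adjusted p = 0.000635, on 4 to 12 counts in IgG and 20 to 52 in acRIP) and Rfx5, a regulator of MHC class II genes, was lower, with 80, 129 and 98 counts in IgG and 0, 2 and 4 in acRIP (adjusted p = 2.02e-10). Without IgG replicate 2 the RFX genes called higher were 2 in place of 1. Rfx6 was not above its input share in acRIP (-0.20 over input, on 48 to 56 input counts), and was called lower in IgG than in input (-2.33). Rfx5, on 14 to 42 input counts, was called lower in acRIP than in input too, and was called higher in IgG than in input (2.51).

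Of 34 tested nuclear receptors 8 (23.5%) were called higher and 9 (26.5%) lower, again beside 11.5% and 20.9% of all tested genes. With counts halved, as if both mates of a pair had been counted, 4 were lower in place of 9, and 2 were higher in place of 8 when tested against a fold change of 2. The ends were Nr2e1, at 0 in all IgG libraries and 12 to 22 counts in acRIP, at least 5.88-fold higher against a floor of 3 counts a library (adjusted p = 6.80e-05), and Nr0b2, at 0 in all acRIP libraries and 10 to 20 counts in IgG, at least 4.45-fold lower (adjusted p = 8.58e-05). If mates were counted separately, a floor of 6 counts applies and the bounds become 2.94-fold and 2.22-fold. Nr2e1, with 10, 12 and 0 counts in input, had enough counts to be tested mainly through acRIP. Nr0b2, with 6, 10 and 18 in input, had enough mainly through IgG. The adjusted p of each and its place at an end of the list thus depend on the count filter and are no separate support. Among 19 other germ-cell regulators 1 was higher, the heat shock factor Hsf2 (1.19, SE 0.07, adjusted p = 2.24e-14), and 3 were lower (Ovol1, Stra8, Zfy2), with 2 higher without IgG replicate 2. Zfy2, a Y-linked zinc finger gene of spermatids, fell from 413 to 509 counts in IgG to 81 to 122 in acRIP (log2 fold change -2.10, SE 0.15, adjusted p = 4.42e-13). Of 14 late spermatid genes, many of them known CREM targets, 8 were higher and 4 lower at the adjusted p, where 26.4% and 37.6% of all tested genes were, and 0 passed 2-fold. Their median log2 fold change was 0.11, against -0.09 over all tested genes.

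**Figure D4:**
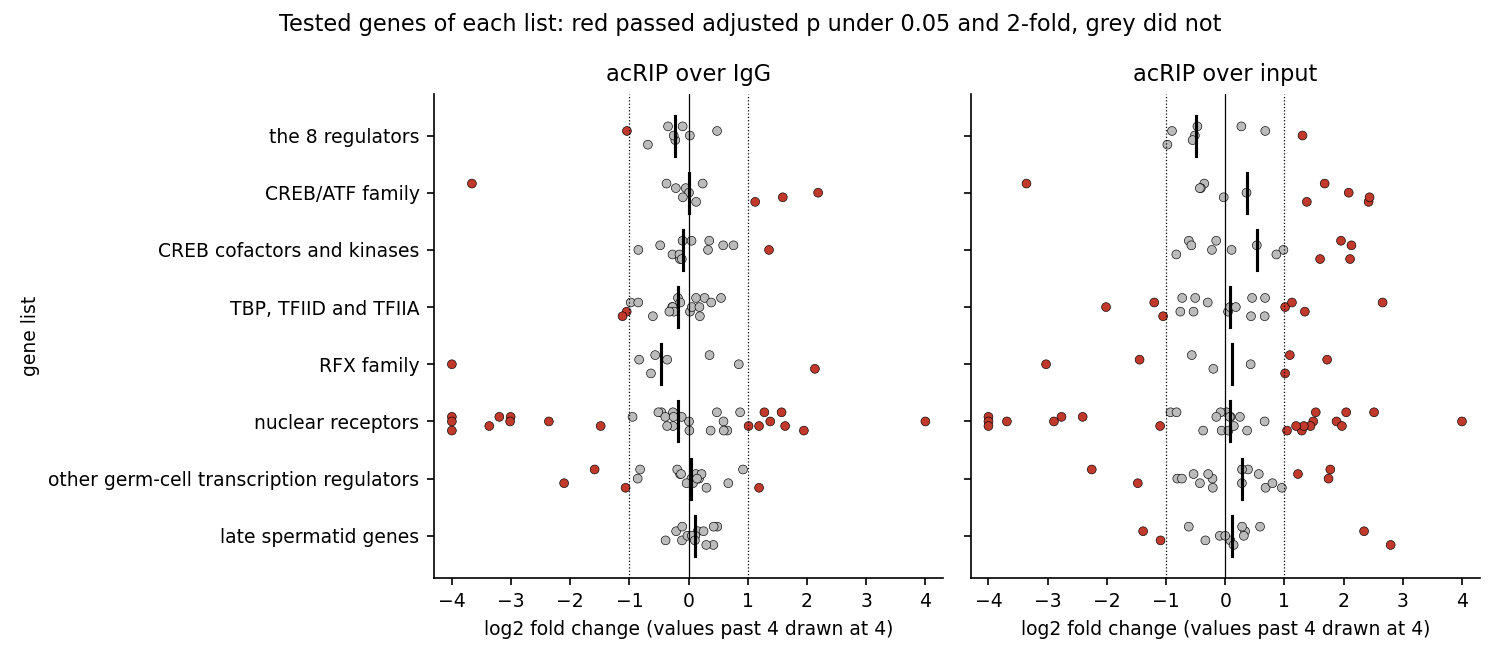
Log2 fold change (horizontal axis) of the tested genes in each list for acRIP over IgG and acRIP over input; each point is a gene, red where it passed adjusted p under 0.05 and 2-fold, black bars are list medians, and fitted values past 4 are drawn at 4. The 8 regulators have medians of -0.24 and -0.49 and lie closer to 0 than the ends of the nuclear receptor list.

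Across all 9 libraries the genes whose profile was most like that of Crem were Xab2, Ccdc155, Rnf32, Hnrnpk and Hmox2, out of 15521 protein-coding genes compared. Likeness was the root mean square difference of centred log2 CPM profiles, 0.0308 to 0.0430 for these 5, as a description with no test. The CPM values are counts scaled to each library's total after TMM adjustment, the scaling also used in the edgeR tests. Among the regulators Fhl5 was nearest to Crem (0.0760, rank 107) and Tbpl1 next (0.0827, rank 158). Taf7l stood at 0.276, Rfx2 at 0.424, Creb1 at 0.438 and Rfx3 at 0.469, and Nr6a1 was the least like it (0.877, rank 11425). The profiles share the same libraries.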

How the data were processed

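Per the labels and the study's methods, the authors trimmed reads with Trim Galore 0.6.7, mapped them to mm10 with STAR 2.7.10a and deposited raw counts of uniquely mapped reads per gene from featureCounts 2.0.2. The annotation release and strand setting are not given in the sources used here. Of counts from 1 to 20, 81.9% to 84.3% were even, so read pairs may have been counted by mate. RNA of all 3 groups was amplified (Smart-seq2), input from a diluted, measured amount and precipitated RNA from unmeasured amounts. GENCODE vM21 named 55141 of 55401 IDs. Groups came from the sample labels, which do not say whether replicates are separate animals, so p-values measure the spread between libraries, which may be technical. The regulators and lists were chosen with earlier results of these data known. Genes named outside the 8 are the called gene of each list with the highest and the lowest acRIP over IgG change, the paired genes and the 5 most like Crem. Crebzf, Crebl2, Ovol1 and Stra8, from short lists of called genes, were named after their values were seen. So were single cell-type markers. Genes that overlap the 8 were named by position.

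Counts were tested with edgeR 4.0.16 (filterByExpr, TMM, quasi-likelihood, all 9 libraries) and checked on simulated data. FPKM used the merged exon lengths deposited with the counts, and total counts, and limma 3.58.1 tested log2(FPKM + 1). Pair ratios added 0.5 counts. Alternatives were DESeq2 1.42.0, other scalings and filters, 6 libraries only, a test against 2-fold, halved counts, a replicate block, and fits that each dropped 1 library. Near-identical transcripts were sought with BLASTN 2.17.0. Motifs were searched in the exons deposited with the counts and in RefSeq promoter windows.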

Additional observations from a re-analysis of the deposited data

How the results depend on the processing

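Direction and call (adjusted p under 0.05 and 2-fold) were kept by the 8 regulators in 147 of 152 refitted values of acRIP over IgG, 147 of 152 of acRIP over input and 152 of 152 of IgG over input. In each comparison 7 of the 8 were not called in the main fit, and staying not called counts as kept. A loss of the adjusted p alone, as for Crem in acRIP over IgG (11 of 18 fits) and Rfx3 in IgG over input (7 of 18), also counts as kept. Tested against a fold change of 2, which asks for more than a difference, counts at the adjusted p fell from 1 to 0 higher and 6 to 0 lower in acRIP over IgG (Creb1 adjusted p = 0.556, so 0 called lower), from 3 to 1 and 5 to 0 in acRIP over input, and from 3 to 1 and 4 to 0 in IgG over input, with Nr6a1 the 1 left in each. Upper quartile scaling took Creb1 in acRIP over IgG to -0.99, leaving 0 called lower, and Taf7l in acRIP over input to -1.03, giving 1 called lower. Total count scaling also gave 1, Taf7l at -1.06. With 1 library left out the regulators called lower ranged from 0 to 1 in acRIP over IgG and from 0 to 2 in acRIP over input.

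Small values changed sign. With total count scaling Fhl5 and Taf7 in acRIP over IgG were -0.030 and -0.029, Taf3 in acRIP over input -0.034 and Atf1 in IgG over input -0.011. With upper quartile scaling Rnf32 in acRIP over IgG was 0.0061, Taf3 in acRIP over input -0.00058 and Atf1 in IgG over input -0.078, and with no filter Atf1 was -0.0093. With 1 library left out Taf7 in acRIP over IgG ran from -0.040 (without acRIP replicate 2) to 0.079, Taf3 in acRIP over input from -0.026 (without input replicate 3) to 0.14, Rfx6 in acRIP over input from -0.82 to 0.077 (without acRIP replicate 2), Atf1 in IgG over input from -0.0087 (without input replicate 1) to 0.041, and Creb5 in IgG over input from -0.54 to 0.78 (without input replicate 1). The cause was not tested. The median of all genes in acRIP over input was -0.44 with no filter, when 35699 genes were tested, and -0.18 with total count scaling, against -0.10.

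The labels do not say whether libraries of one replicate number share RNA. Deviations of same-numbered libraries correlated at -0.01 to 0.04 and those of differently numbered ones at -0.03 to 0.03. With 3 libraries a group and noise from each precipitation, such correlations cannot decide whether the libraries are paired. With a replicate block, Crem in acRIP over IgG was -0.10 (adjusted p = 0.0175), Creb5 in IgG over input was 0.062, and no count over the 8 changed. Depth limits Creb1 most, with 91 counts in 1 acRIP library, and the list genes with under 20 counts.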
